A study of Homo sapiens with 2 samples.

Results

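The MAX network genes examined here were MYC, MAX, MXD1, MXI1, MXD3, MXD4, MNT, MGA and MLX. They were chosen by name as genes of MYC, MAX, MXD, MNT, MGA and MLX proteins, and all 9 were found among the 37122 genes of the count table. Each of the 9 had at least 10 reads in the libraries together, a minimum that 18778 genes of the table reached. RNA-seq compared Ramos, a human Burkitt's lymphoma (BL) cell line, with Ramos640, a line derived from Ramos by exposure to escalating rituximab, an antibody against CD20, in the presence of normal human serum (NHS) as a source of complement. Both lines were grown in the same medium. Resistance was kept up in Ramos640 by renewed rituximab with 20% NHS at intervals of 21 days, and the time between the last treatment and RNA extraction is not given in the sources used here. RNA of 3 passages was pooled for each cell line and 1 library was made from it, so no difference below has a replicate check and no test between the cell lines was possible.

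MYC is a transcription factor of the basic helix-loop-helix leucine zipper family. It binds DNA as a dimer with MAX, mostly at the E-box, and raises the transcription of genes for ribosome assembly, metabolism and growth. The MXD proteins and MNT compete with MYC for MAX and recruit SIN3 corepressor complexes to the same sites, MGA joins MAX to a Polycomb-type repressor complex, and MLX is a MAX-like partner for the glucose-responsive factors MLXIP (MondoA) and MLXIPL (ChREBP) and for some of the MXD proteins and MNT. BL typically carries a translocation that places MYC under the control of an immunoglobulin locus.

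The E-box is shown because it is the site at which the members of the network meet. The canonical letters, CACGTG, read the same on both strands, so 1 search covers both. RefSeq (GRCh38.p14) gave 13 transcription starts for 8 of the 9 members, and 3 of the 13 had this motif in the 250 bases before the start. Of 35116 starts of all genes, 6.34% had it. The 3 windows belong to MXD4, MNT and MLX, whose RNA is described below, and the motif is in capitals.
MXD4 (chr4:2262327-2262359, minus strand, 238 bases before the start): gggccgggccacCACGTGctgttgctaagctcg
MNT (chr17:2401233-2401268, minus strand, 193 bases before the start): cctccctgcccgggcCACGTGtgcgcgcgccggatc
MLX (chr17:42567035-42567070, plus strand, 50 bases before the start): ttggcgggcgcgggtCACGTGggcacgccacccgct

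MXD1, the member with the largest log2 fold change in size, had none in the 250 bases before its RefSeq start. The starts of MAX, MXI1, MXD3 and MGA had none either. The bases before the MXD1 start are given here for comparison with those windows.
MXD1 (chr2:69914859-69915108, GRCh38.p14, plus strand): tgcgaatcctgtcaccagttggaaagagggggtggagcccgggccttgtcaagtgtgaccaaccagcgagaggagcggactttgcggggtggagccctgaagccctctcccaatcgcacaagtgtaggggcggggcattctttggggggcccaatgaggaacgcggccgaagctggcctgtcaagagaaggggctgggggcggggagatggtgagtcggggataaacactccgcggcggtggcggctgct

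The libraries held 38030090 reads for Ramos and 30871826 for Ramos640, so that the floor of 3 reads corresponds to 0.0789 and 0.0972 CPM, the counts scaled to library size. All 7 B-cell markers and all 3 germinal centre B-cell markers examined had at least 1532 reads in each library. The 5 T-cell markers summed to 6 reads in Ramos and 32 in Ramos640, the 4 monocyte markers to 5 and 15, and the 4 epithelial markers to 42 and 16. CD3D, CD2 and CD8A had no reads in either library. Genes rich in G and C tended to be higher in Ramos640 (Spearman's rho of 0.42 between GC content and log2 fold change over 10246 protein-coding genes of at least 100 reads, which share the same 2 libraries and are not independent replicates). Values with this trend over GC content removed are given where they change a result.

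MYC RNA was higher in the resistant line. MYC, on chromosome 8 of GRCh37 from 128747680 to 128755197 (plus strand), had 16186 reads in Ramos and 21564 in Ramos640. Its level was 425.6 CPM in Ramos, with an exact 95% Poisson interval from 419.1 to 432.2, and 698.5 CPM in Ramos640, with an interval from 689.2 to 707.9, and these intervals do not overlap. After scaling by median-of-ratios size factors, MYC was 1.73-fold higher in Ramos640 (log2 fold change 0.79, 95% counting interval from 0.77 to 0.82). All intervals here cover counting error only and carry no information on how cultures of the same line vary. In RNA of a whole culture, a higher level in every cell and a larger share of cells with high levels cannot be told apart. MYC was the 1 member past 1.5-fold in the upward direction, the fold criterion of the study, against 14.6% of all 18778 genes and 6.87% of the 8226 genes with at least 1000 reads. With the trend over GC content removed the log2 fold change was 0.78.

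No protein-coding gene with at least 100 reads lay within 1 Mb of MYC, so the neighbourhood could not be set beside it in the way used for the other members. PVT1, a long non-coding RNA gene that starts downstream of MYC and was named after its value was seen, had 649 reads in Ramos and 583 in Ramos640. Its log2 fold change of 0.23 (interval from 0.063 to 0.39) was in the same direction as that of MYC and smaller.

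MAX, the obligate partner of MYC, was at nearly the same level in both libraries. The gene lies on chromosome 14 from 65472892 to 65569413 (minus strand). Its 1944 reads in Ramos were 51.1 CPM, and its 1594 reads in Ramos640 were 51.6 CPM. The log2 fold change was 0.095 and the interval from -0.0017 to 0.19 included 0, so a difference was not detectable at this depth. Both bounds of this interval were within 1.5-fold, a log2 fold change of 0.585. Exons of MAX overlap those of FNTB and CHURC1-FNTB on the opposite strand, which had 238 and 984 reads in Ramos, and the use of strand in counting is not stated.

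Levels of different genes were set side by side as RPKM, which divides the reads of a gene by its exon length and by the library size. MYC led in both libraries, with 69.7 RPKM in Ramos and 114.3 in Ramos640. It ranked above 94.6% and 96.5% of the genes tested whose exon length was known. MXD3 followed with 44.6 and 57.4 RPKM, MLX with 13.4 and 16.6, and MAX with 8.17 and 8.25. MGA (3.31 and 3.15 RPKM), MXD4 (2.88 and 2.89) and MXI1 (2.62 and 1.79) came next. MNT had 1.35 and 1.41 RPKM, and MXD1 was the lowest with 0.282 and 0.117. The order of the 9 genes was the same in both libraries. Exact Poisson intervals of neighbours in this order overlapped for MXD4 and MXI1 in Ramos (2.68 to 3.09 and 2.41 to 2.84 RPKM) and for MGA and MXD4 in Ramos640 (3.01 to 3.29 and 2.66 to 3.13 RPKM), and did not overlap for the others. MGA and MXD4 are neighbours in this order that change places when the length of the longest transcript is used in place of all exons, and no other rank changed. MYC made up 47.6% of the summed RPKM of the 9 genes in Ramos and 55.5% in Ramos640. MYC had 8.53 times the RPKM of MAX in Ramos and 13.9 times in Ramos640. By the length of the longest transcript these were 7.06 and 11.5 times.

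**Figure D1:**
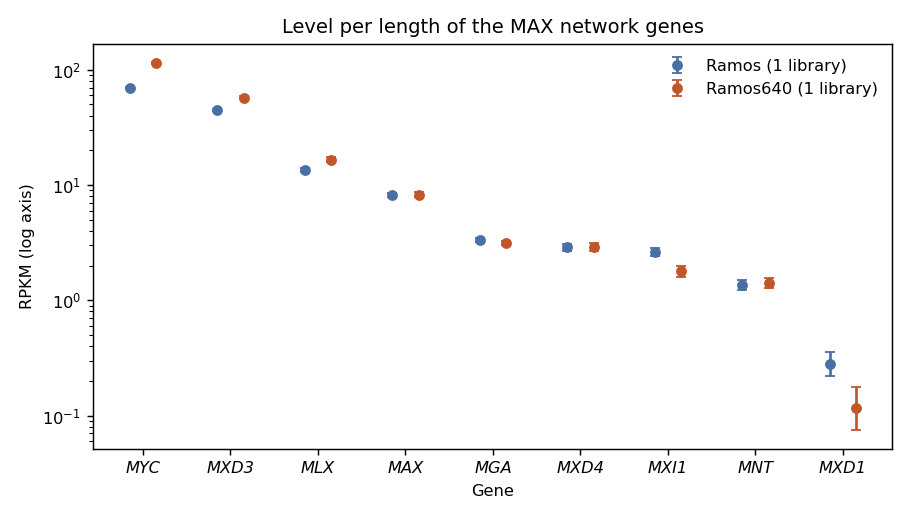
RPKM (log axis) of the 9 MAX network genes in the Ramos library (blue) and the Ramos640 library (orange), with exact 95% Poisson intervals of the reads as bars. MYC and MXD3 are highest in both libraries, and MXD1 is lowest at 0.282 and 0.117 RPKM.

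Of the MXD genes, MXD1 and MXI1 were lower in Ramos640, MXD3 was higher and MXD4 was at nearly the same level. MXD1 encodes the founding MXD repressor, which is typical of differentiating cells. It lies on chromosome 2 from 70124820 to 70170077 (plus strand), with 68 reads from the Ramos library and 23 from Ramos640. These are 1.79 CPM (interval from 1.39 to 2.27) and 0.745 CPM (interval from 0.472 to 1.12), and the intervals do not overlap. MXD1 was 2.22-fold lower in Ramos640, with a log2 fold change of -1.15 and an interval from -1.93 to -0.48, whose upper bound does not reach 1.5-fold. It was the 1 member past 1.5-fold in the downward direction, against 17.3% of all genes tested. MXD1 had 91 reads in all and is not among the genes with at least 1000 reads, of which 7.93% were lower past 1.5-fold. Exons of MXD1 overlap those of SNRNP27 on the same strand, which had 1367 and 792 reads, so that some reads could have been assigned to either gene.

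MXI1, which encodes the MXD protein also known as MAD2 or MXD2, lies on chromosome 10 from 111967363 to 112047123 (plus strand). The 588 reads in Ramos and 327 in Ramos640 are 15.5 and 10.6 CPM. The log2 fold change of -0.46 had an interval from -0.66 to -0.27 and corresponds to a 1.38-fold lower level, within the 1.5-fold criterion. With the GC trend removed it was -0.34.

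MXD3 is the MXD member known for its expression in proliferating cells. The gene lies on chromosome 5 from 176728462 to 176739758 (minus strand). Ramos gave 8036 of its reads and Ramos640 gave 8409, which are 211.3 and 272.4 CPM. The log2 fold change was 0.45 (interval from 0.40 to 0.49), a 1.36-fold higher level, and it was 0.26 with the GC trend removed (GC content 61.3%, trend 0.19). MXD3 alone made up 88.5% of the summed RPKM of the 4 MXD genes in Ramos and 92.3% in Ramos640. This sum was 50.3 RPKM in Ramos and 62.2 in Ramos640, higher in the resistant line although 2 of its 4 genes were lower. Exons of MXD3 overlap those of RAB24 on the same strand (785 and 579 reads) and of PRELID1 on the opposite strand (2095 and 2111 reads).

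MXD4, on chromosome 4 from 2249159 to 2263836 (minus strand), had 752 reads in Ramos and 613 in Ramos640, or 19.8 and 19.9 CPM. The log2 fold change of 0.086 had an interval from -0.070 to 0.24 that included 0. The sign depended on the processing, since it was -0.10 with the GC trend removed.

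MNT and MGA, the larger antagonists, did not differ detectably by the main scaling. MNT is a broadly expressed repressor that competes for MAX in dividing and resting cells. It lies on chromosome 17 from 2287367 to 2304398 (minus strand) and had 448 and 378 reads, 11.8 CPM in Ramos and 12.2 in Ramos640, at 0.14 on the log2 scale (interval from -0.065 to 0.34). With the GC trend removed MNT was at -0.048, so its sign depended on the processing. MGA, which carries a T-box domain besides its helix-loop-helix domain, lies on chromosome 15 from 41913332 to 42065279 (plus strand) and had 2529 and 1950 reads, or 66.5 and 63.2 CPM. The log2 fold change of MGA was 0.0060 with an interval from -0.080 to 0.092, and it was -0.074 with total counts. With the GC trend removed it was 0.20, above that interval (GC content 42.2%, trend -0.19).

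MLX, on chromosome 17 from 40719090 to 40725257 (plus strand), was higher in Ramos640. The 2172 reads in Ramos and 2186 in Ramos640 are 57.1 and 70.8 CPM, and the log2 fold change was 0.39 (interval from 0.30 to 0.48). The 1.31-fold difference was within the 1.5-fold criterion, and the value was 0.29 with the GC trend removed. PSMC3IP, whose exons overlap those of MLX on the opposite strand, had 2008 and 1578 reads and a log2 fold change of 0.033. Of the MLX partners, MLXIP had 1768 and 1143 reads (log2 fold change -0.25, interval from -0.36 to -0.14), a difference opposite in direction to that of MLX. MLXIPL had no reads in either library, which allows up to 3 reads in each.

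The MYC paralogs were nearly or wholly without reads. MYCN had none in either library, and MYCL, listed under its older symbol MYCL1, had 17 reads in Ramos and 15 in Ramos640. The log2 fold change of MYCL1, 0.19, had an interval from -0.90 to 1.29. MYCL1 stood at 0.0900 RPKM in Ramos and 0.0978 in Ramos640, against 69.7 and 114.3 RPKM for MYC, so almost all reads of the MYC family were those of MYC itself.

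**Figure D2:**
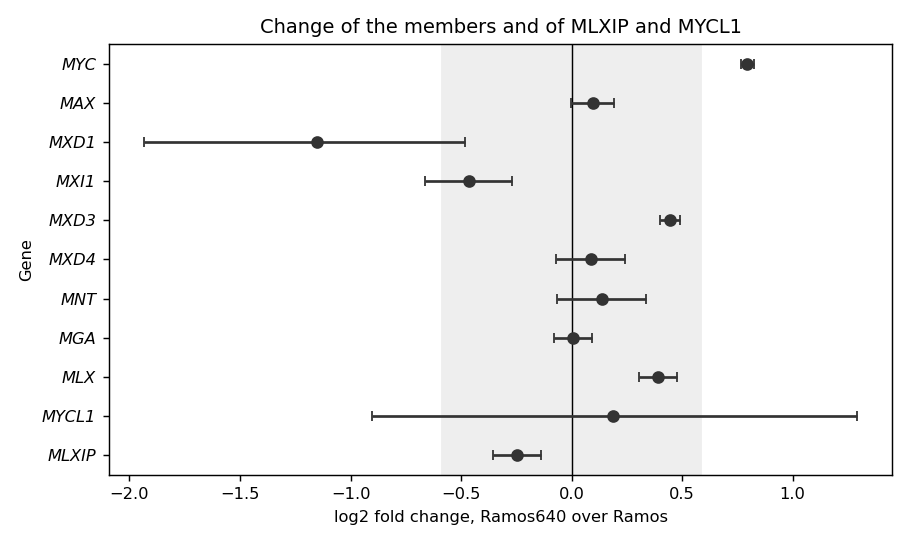
Log2 fold change of Ramos640 over Ramos for the 9 members and for the relatives MYCL1 and MLXIP, with 95% counting intervals as bars and 1.5-fold in either direction as the grey band. MYC (0.79) and MXD1 (-1.15) are the 2 members outside the band.

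Over the 9 members, the counting intervals of 3 (MYC, MXD3 and MLX) lay above 0, those of 2 (MXD1 and MXI1) below 0, and those of 4 included 0. Over all genes tested 29.6% had an interval above 0 and 31.6% had one below, so these counts are close to the background. The median log2 fold change of the members was 0.095, against -0.015 over all genes tested, whose quartiles were -0.40 and 0.34. Scaling to total counts moved the median of all genes by -0.080, and under it MYC was at 0.71 and MXD1 at -1.23, both past 1.5-fold. For the 6 antagonists of MYC (the MXD genes, MXI1, MNT and MGA) the median was 0.046, with 1 interval above 0, 2 below 0 and 3 that included it. The sign of this median depended on the processing. With the GC trend removed MXD4 (-0.10) and MNT (-0.048) were below 0 besides MXD1 and MXI1, and the median was then below 0.

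Because ratios within a library do not depend on how the libraries are scaled, the reads of MYC were also set against those of every other member. In Ramos there were 238 MYC reads for each MXD1 read, and in Ramos640 there were 937.6. This ratio was 3.94 times higher in Ramos640, with a 95% counting interval from 2.42 to 6.63. For MXI1 the ratio rose from 27.5 to 65.9 MYC reads per read, 2.40 times (interval from 2.09 to 2.76). It was 1.73 times higher for MGA, 1.63 for MXD4, 1.62 for MAX and 1.58 for MNT, with lower bounds between 1.37 and 1.62. The smallest differences were those for MLX, 1.32 times (interval from 1.24 to 1.41), and MXD3, 1.27 times (interval from 1.23 to 1.32). MXD3 was thus the antagonist whose reads came closest to keeping their ratio to MYC, at 2.01 MYC reads per MXD3 read in Ramos and 2.56 in Ramos640. All 8 intervals lay above 1, and all 8 ratios share the same MYC reads. Each ratio was bound to lie above 1, since MYC had the highest log2 fold change of the members. The ratios still hold the trend over GC content. With that trend removed the log2 fold changes were 0.78 for MYC, 0.29 for MLX and 0.26 for MXD3, so MLX then came closest to MYC.

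**Figure D3:**
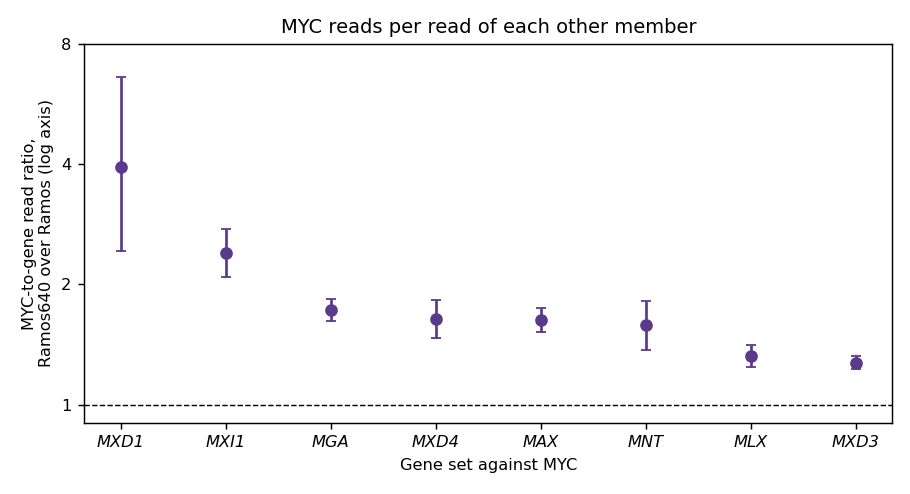
Ratio of MYC reads to the reads of each other member in Ramos640, divided by the same ratio in Ramos (log axis), with 95% counting intervals as bars and a dashed line at 1. All 8 points lie above 1, from 1.27 for MXD3 to 3.94 for MXD1.

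The neighbouring genes were examined to see whether a member moved with its region. Protein-coding genes with at least 100 reads within 1 Mb of either end of the member were found for 8 of the 9 members. By point value MXD1 was lower than each of its 10 neighbours, whose log2 fold changes ran from -0.63 to 0.25 with a median of -0.16, and 3 of them had intervals above 0 and 5 below. MXD1 itself had 91 reads, below the 100 asked of a neighbour, and its interval overlapped those of GMCL1, PCYOX1 and SNRNP27. SNRNP27, whose exons overlap those of MXD1, was at -0.41. In contrast, MXI1 was within the range of its 7 neighbours, which had a median of -0.28, and 6 of the 7 had intervals below 0. Of all genes tested 29.6% had an interval above 0 and 31.6% below. MXD3 was higher than 28 of its 32 neighbours (median 0.11) and MLX higher than 35 of 43 (median 0.062). MAX, MXD4, MNT and MGA lay within the spread of their neighbours, whose medians ran from -0.057 to 0.13.

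**Figure D4:**
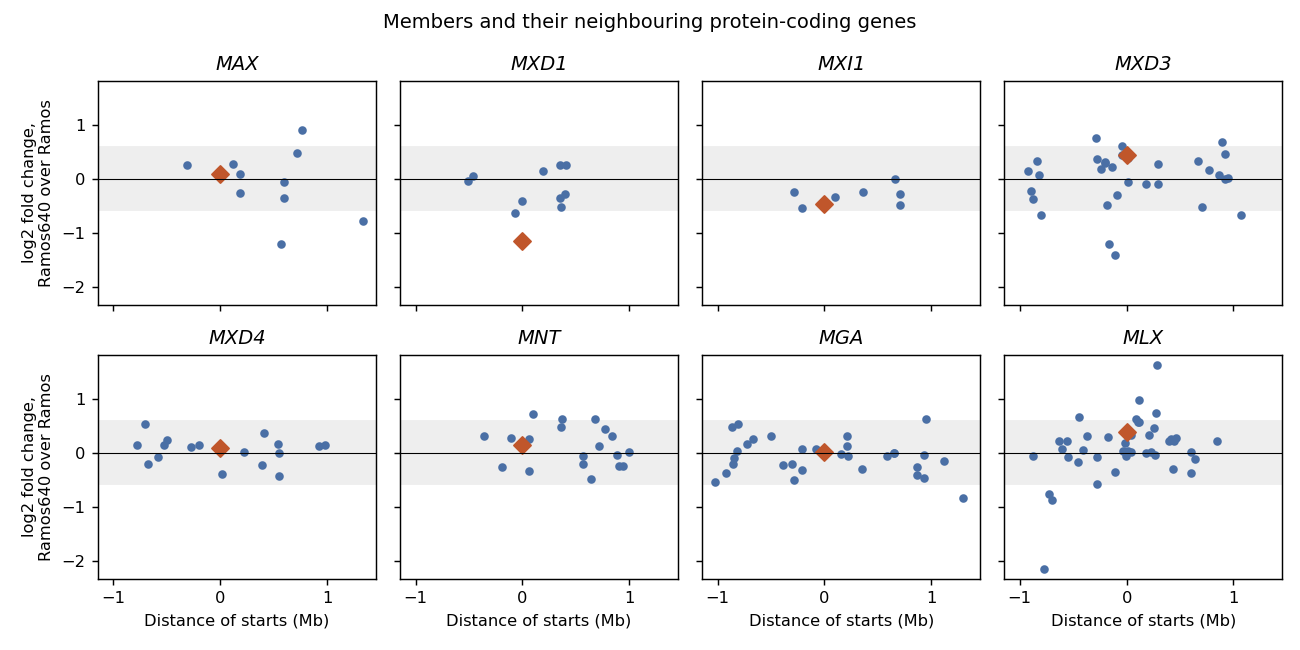
Log2 fold change of Ramos640 over Ramos against the distance from the start of each member (Mb, positive downstream) for protein-coding genes with at least 100 reads within 1 Mb of either end of the member, so that some starts lie farther than 1 Mb apart, with the member as an orange diamond and 1.5-fold as the grey band. The point of MXD1 lies below those of its 10 neighbours, and MXI1 lies among its 7.

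Partners and targets of the network were taken from 11 lists of 126 genes in all. The lists were written from general knowledge, with earlier results of these data known. Of the 13 transcription cofactors of MYC, 9 had intervals above 0 and 2 below, with a median log2 fold change of 0.20 that became 0.018 when the GC trend was removed. Deeply read genes more often have an interval clear of 0, and among the genes with at least 1000 reads 40.9% lay above 0 and 39.4% below. KAT2A, a histone acetyltransferase, was the 1 cofactor past 1.5-fold, with 3728 and 4548 reads (log2 fold change 0.67, interval from 0.61 to 0.73), and it was at 0.48 with the GC trend removed, within 1.5-fold. None of the 14 genes that control the turnover of the MYC protein was past 1.5-fold (median 0.011, 3 intervals above 0 and 5 below). None of the 6 factors that bind the MYC promoter was either, with a median of 0.12. With the GC trend removed that median was 0.18, and FUBP1, named after its value was seen, was past 1.5-fold at 0.63.

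Of the 15 corepressor subunits with which MXD, MXI1 and MNT act, 10 had intervals below 0 and 4 above, with a median of -0.16 that became 0.061 when the GC trend was removed. For these subunits and those of the MGA complex, the background was 31.6% of all genes tested below 0 and 29.6% above. Of the genes with at least 1000 reads it was 39.4% and 40.9%. BRMS1, a subunit of SIN3 complexes, stood apart with 2729 reads in the Ramos library and 4219 in that of Ramos640 (1.01, interval from 0.94 to 1.08). In the complex of MGA, PRC1.6, 7 of the 11 subunits had intervals below 0 and 2 above, and the median was -0.27. PCGF6, the subunit that defines this complex, had 439 and 214 reads (log2 fold change -0.65, interval from -0.90 to -0.42). CBX3, a heterochromatin protein, had 13064 and 6449 reads (-0.64, interval from -0.68 to -0.59), overlaps HNRNPA2B1 on the opposite strand and has 6 pseudogenes with reads. L3MBTL2, which binds histones, had 2660 and 3214 reads (0.65, interval from 0.58 to 0.73). None of these 3 subunits was past 1.5-fold with the GC trend removed.

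Genes that MYC is known to induce were taken as 3 of these lists. Since the lists were not chosen blind to these data, the shares set beside them describe them and do not test them. Among the 19 nucleolar genes, which build ribosomes, 7 were higher past 1.5-fold in Ramos640 and none was lower, against 14.6% and 17.3% of all genes tested and 6.87% and 7.93% of those with at least 1000 reads. Of their intervals 15 were above 0 and 1 was below, and the list had a median log2 fold change of 0.30. Intervals above and below 0 were found for 29.6% and 31.6% of all genes tested, and for 40.9% and 39.4% of those with at least 1000 reads. RRS1 and BOP1, both ribosome assembly factors, had the largest differences. BOP1 went from 1741 reads in Ramos to 3330 in Ramos640 (1.32 on the log2 scale, interval from 1.23 to 1.40), and RRS1 had 2987 and 5421 (1.24, interval from 1.18 to 1.31). MYBBP1A, a nucleolar regulator of rRNA synthesis, had 2082 and 2851 reads (0.83). With the GC trend removed, 4 of the 7 genes were past 1.5-fold, among them these 3 at 1.14, 1.09 and 0.65.

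The 15 metabolic genes had 9 intervals above 0 and 5 below, with a median of 0.11. Of all genes with at least 1000 reads 40.9% had an interval above 0 and 39.4% below. SRM, the spermidine synthase, had 8194 and 11736 reads (log2 fold change 0.90) and SLC7A5, an amino acid transporter, 14199 and 19551 (0.84). TFRC, the transferrin receptor, had 11713 and 5961 reads (-0.59), and it was at -0.39 with the GC trend removed, within 1.5-fold. ODC1, a classical MYC target named after its value was seen, had 33389 and 19283 reads and a log2 fold change of -0.41. The 13 growth genes were divided, with 6 intervals above 0 and 4 below, against the same shares, and a median of 0.020. POLR3D, an RNA polymerase III subunit, was just past 1.5-fold with 1289 and 1495 reads (0.59), and it was within 1.5-fold with TMM factors, with total counts (0.51) and with the GC trend removed (0.54).

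Of the 11 genes that MYC is known to repress, 9 had at least 10 reads, of which 4 were higher past 1.5-fold and 3 lower, against 14.6% and 17.3% of all genes tested. With total counts, and also with the GC trend removed, 3 were higher past 1.5-fold and 4 lower. Of their intervals 3 were above 0 and 3 below, against 29.6% and 31.6% of all genes tested. Their median was -0.46, and -0.22 with a pseudocount of 10. The cell cycle inhibitor CDKN1B had 581 and 846 reads (log2 fold change 0.92) and the stress gene GADD45A 664 and 858 (0.75). CDKN2C, another inhibitor, had 2794 and 1296 reads (-0.73), the cyclin CCNG2 had 2310 and 744 (-1.25), and CDKN2B had 35 and 10 (-1.35). NDRG2 had 1 and 9 reads, a log2 fold change of 2.59 whose counting interval had its lower bound at 0.70. CDKN1A, named after its value was seen, had 21 and 25 reads and an interval from -0.26 to 1.54. Of the 5 targets of the MLX partners, 4 had at least 10 reads, none past 1.5-fold. TXNIP, the best known of them and named after its value was seen, had 683 reads in Ramos against 662 in Ramos640 (0.34 on the log2 scale, interval from 0.18 to 0.49), and ARRDC4, likewise named after its value was seen, had 0 and 1.

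**Figure D5:**
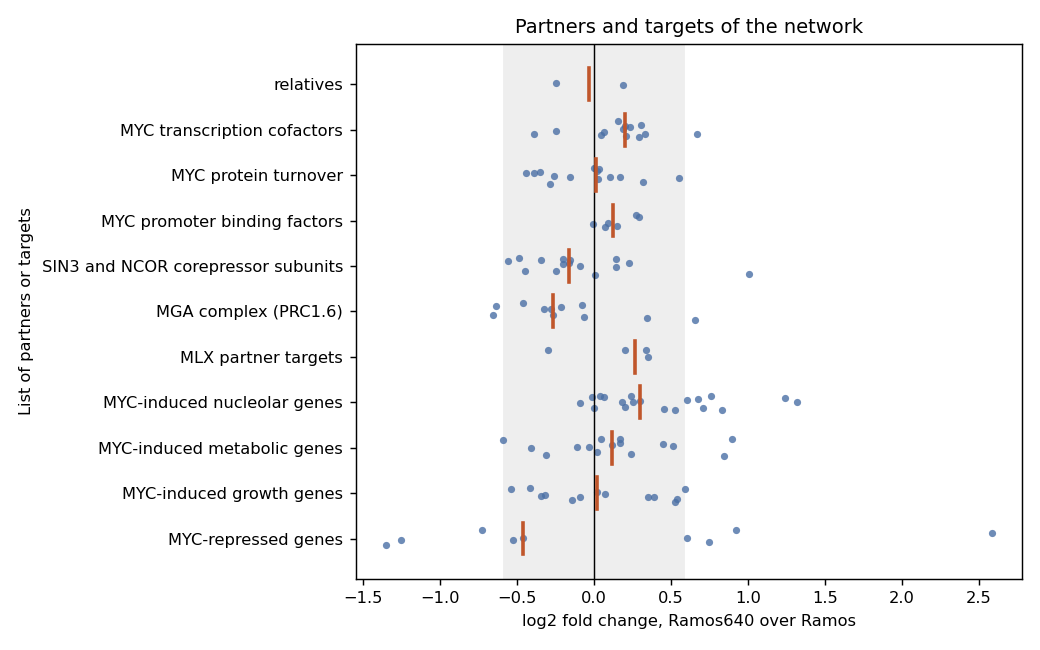
Log2 fold change of Ramos640 over Ramos for the genes with at least 10 reads in 11 lists of relatives, partners and targets of the network, 1 point per gene, with the list median as an orange bar and 1.5-fold as the grey band. The nucleolar genes have 7 points to the right of the band and none to the left, and the repressed genes have 4 and 3.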

How the data were processed

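RNA-seq reads were measured in 1 library each of Ramos and Ramos640 cells. The authors removed adaptor sequences, aligned the Ion reads to GRCh37 with MapSplice (v2.1.6) and deposited raw counts per gene. The counting program, its annotation, its use of strand and its treatment of reads with several matches are not given in the sources used here.

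The libraries were scaled by size factors of 1.14 and 0.876 from the median of ratios, and log2 fold changes were taken after adding 1. Exact Clopper-Pearson intervals (95%) for the share of reads from Ramos640 cover counting error only. The interval of a ratio to MYC was conditional exact, or normal on the log scale where a gene had at least 1000 reads in each library. With 1 library per cell line no count model could be tested. edgeR (version 4.0.16) gave only TMM factors. Alternatives were TMM factors, total counts, pseudocounts of 0.1 and 10, minimums of 1 and 100 reads, the longest transcript as length, and removal of a running median over GC content (501 genes). Gene models were those of GENCODE v44lift37 on GRCh37, in which 26511 genes were found under their symbol and 2282 under a newer one. GC content was known for 84.1% of the genes tested and for every member and list gene. Intervals were tested on simulated counts with counting error alone, the error they assume, so this test does not bear on variation between cultures.

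The members and lists were chosen with earlier results of these data known. Genes named are the members, the relatives with reads, and up to 3 largest rises and falls of each list past 1.5-fold with an interval clear of 0. MYCN and MLXIPL, without reads, and genes so marked were named besides. No likeness of pattern was computed, since with 2 libraries a pattern is 1 fold change. The share of genes with at least 1000 reads was added after the data were examined.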

Additional observations from a re-analysis of the deposited data

How the results depend on the processing

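No paired analysis was possible because each cell line has 1 library. Of the 315 values recomputed, 270 moved by less than a counting interval (counts of genes by less than 1.5 times, ranks not at all) and 45 moved by more. A median has no counting interval of its own, so for medians this division is rough. MYC stayed higher and MXD1 lower past 1.5-fold under every scaling, pseudocount and GC alternative run. MXD1 has 91 reads, so a minimum of 100 reads left 0 members lower past 1.5-fold. For no other change was the cause tested.

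With total counts the log2 fold change was 0.71 for MYC and 0.37 for MXD3. With the GC trend removed it was -0.0086 for MAX, which is then also the median of the members, 0.26 for MXD3, -0.10 for MXD4, 0.20 for MGA and 0.29 for MLX. By the longest transcript MXD4 ranked 5 and MGA 6 in both libraries.

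With total counts the list medians were 0.12 for the cofactors, -0.069 for turnover, 0.041 for promoter binding, -0.24 for the corepressors, 0.19 for the MLX partner targets, 0.22 for nucleolar, 0.034 for metabolic and -0.060 for growth genes. With the GC trend removed they were 0.018 for the cofactors, 0.18 for promoter binding, 0.061 for the corepressors, 0.18 for the MLX partner targets, 0.40 for nucleolar and 0.16 for growth genes. Of the MLX partner targets the median was 0.34 with either other minimum of reads.

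Besides that of the members given above, the counts past 1.5-fold that changed by at least 1.5 times were as follows. With the GC trend removed 0 cofactors, 1 promoter binding factor, 4 nucleolar genes and 0 growth genes were higher, 0 metabolic genes were lower, and 0 subunits of the MGA complex were higher and 0 lower. With total counts 1 corepressor and 1 growth gene were lower, and 0 subunits of the MGA complex and 0 growth genes were higher. TMM factors left 0 growth genes higher, and a pseudocount of 0.1 made 1 growth gene lower. With a minimum of 1 read 1 MLX partner target was higher and 5 repressed genes were lower, and with 100 reads 2 repressed genes were higher. Among smaller changes, total counts left 6 nucleolar genes higher. Total counts, and also removal of the GC trend, gave 3 repressed genes higher and 4 lower. A pseudocount of 0.1 gave 4 repressed genes lower, and a pseudocount of 10 gave 3 higher.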
